A study of Mus musculus with 6 samples.

Results

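The 10 genes described here encode inhibitory receptors of T cells and their ligands. The 7 receptors were *Pdcd1* (PD-1), *Lag3*, *Ctla4*, *Havcr2* (Tim-3), *Tigit*, *Btla* and *Cd160*. The 3 ligands were *Cd200*, the ligand of the CD200 receptor, and *Cd274* (PD-L1) and *Pdcd1lg2* (PD-L2), the ligands of PD-1. They were taken as a named set, 2 of them being the targets of the antibodies used, and were matched by symbol to the Ensembl identifiers of the count table. All 10 were among its 47643 genes, and 9 were among the 11877 genes tested, because *Havcr2* had 9 reads over the 6 samples and fell short of the minimum of 10.

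The RNA came from splenic CD4+ T cells of Tg4 Tiger *Nr4a3*-Tocky mice, in which a transgenic T cell receptor recognises a myelin basic protein (MBP) peptide, GFP reports *Il10*, and a fluorescent Timer protein that matures from blue to red reports *Nr4a3*, a gene switched on by T cell receptor signalling. Every mouse received 80 μg of the [4Y] MBP peptide under the skin, 24 h later 800 μg of antibody into the peritoneum, 30 min after that a further 8 μg of peptide, and its spleen was taken 4 h later. The antibody was an isotype control (a mixture of rat IgG1 and IgG2a), anti-PD1 (clone 29F.1A12) or anti-Lag3, with 2 samples in each of these 3 groups. Cells positive for both Timer colours were sorted, and there was no group without peptide. The isotype control group is the background of both antibody comparisons, and the antibody groups were also compared with each other. Mouse ages are not given in the sources used here, and a further replicate batch of 3 samples was left out by the authors as an outlier and is not analysed here.

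PD-1, Lag3, CTLA-4, Tim-3, TIGIT, BTLA and CD160 restrain T cells after they have been activated, each by binding a ligand on another cell, and several of them are themselves made as a consequence of T cell receptor signalling. PD-1 and BTLA recruit phosphatases that remove activating phosphates, CTLA-4 competes with the costimulatory receptor CD28 for CD80 and CD86, and Lag3 binds MHC class II and other ligands. Antibodies against PD-1 or Lag3 act on the protein at the cell surface, and the comparisons below ask whether blocking one receptor went with a change in the mRNA of the other receptors and ligands, 4 h after the second peptide dose.

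On GRCm38, *Ctla4* lies on chromosome 1 (chr1:60887000-60915832, plus strand) between the costimulatory genes *Cd28*, 114 kb away, and *Icos*, 62.1 kb away. *Pdcd1* lies on the same chromosome (chr1:94038305-94052553, minus strand). *Lag3* (chr6:124904361-124911705, minus strand) is 16.1 kb from *Cd4*. The ligand genes *Cd274* (chr19:29367455-29388095, plus strand) and *Pdcd1lg2* (chr19:29410919-29471161, plus strand) are neighbours, 22.8 kb apart. *Btla* (chr16:45224315-45257670, plus strand) and *Cd200* (chr16:45382135-45409053, minus strand) are 124 kb apart on a chromosome that also carries *Tigit* (chr16:43648867-43664146, minus strand). *Cd160* (chr3:96798763-96829351, minus strand) and *Havcr2* (chr11:46454935-46481255, plus strand) are on chromosomes with no other member. Within its boundaries *Ctla4* also holds a pseudogene on the same strand, *Rpl18-ps1*, with 122 reads of its own over the 6 samples, and *Pdcd1lg2* overlaps the antisense gene *A930007I19Rik*, with 11 reads. Whether the counting used strand is not given in the sources used here. Reads of *Pdcd1lg2* and *Cd274* therefore cannot all be told apart from those of genes on their opposite strands. *Cd160* shares only its start (96829284 to 96829351) with a gene on the opposite strand, *Pdzk1*, which had 6 reads over the 6 samples.

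The promoter sequences of 3 members are shown because the results turn on them. *Ctla4* and *Btla* had the lowest p-values among the members and lay on opposite sides of the isotype control, and *Pdcd1* encodes the target of an antibody. Each runs 5′ to 3′ on the gene's own strand, from 250 bases before the RefSeq start to 50 after it, on GRCm38.p6, with matches to the NFAT core GGAAA on either strand in capitals (TTTCC where it reads on the other strand). NFAT is a transcription factor of T cell receptor signalling.
Ctla4: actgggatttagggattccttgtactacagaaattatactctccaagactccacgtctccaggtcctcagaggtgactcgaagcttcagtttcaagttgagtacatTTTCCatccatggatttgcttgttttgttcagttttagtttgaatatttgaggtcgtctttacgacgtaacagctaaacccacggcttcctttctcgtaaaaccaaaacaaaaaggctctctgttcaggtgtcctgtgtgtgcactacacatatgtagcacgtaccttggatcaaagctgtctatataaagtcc
Pdcd1: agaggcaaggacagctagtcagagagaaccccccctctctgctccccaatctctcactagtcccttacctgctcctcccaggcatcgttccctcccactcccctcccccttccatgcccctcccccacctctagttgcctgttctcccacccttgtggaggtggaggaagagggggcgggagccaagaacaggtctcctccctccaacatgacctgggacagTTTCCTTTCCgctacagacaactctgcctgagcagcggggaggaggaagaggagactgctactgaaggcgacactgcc
Btla: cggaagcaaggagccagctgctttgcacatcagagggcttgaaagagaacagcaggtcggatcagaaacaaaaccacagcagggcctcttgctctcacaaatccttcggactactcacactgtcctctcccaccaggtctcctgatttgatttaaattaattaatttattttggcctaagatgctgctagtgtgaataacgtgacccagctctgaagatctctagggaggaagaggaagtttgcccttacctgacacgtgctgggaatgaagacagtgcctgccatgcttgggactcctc
The windows are chr1:60908775-60909074 for *Ctla4*, which is inside the longer gene model given above, chr1:94052504-94052803 for *Pdcd1*, and chr16:45224087-45224386 for *Btla*. The *Ctla4* window held 1 match, the *Pdcd1* window held 2 side by side, and the *Btla* window held 0. RefSeq had an entry for 9 of the 10 members (*Cd160* has 2 entries, so 10 in all), and there was none for *Lag3*. The core was in 6 of these 10 entries and in 61.3% of all 32851 promoters of the same length, so its presence did not set the members apart. The AP-1 letters TGANTCA, searched on both strands, were in 1 of the 10, that of *Havcr2*, against 7.81% of all promoters. A match is a description of these letters and not a binding site.

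The 6 libraries were 3′ mRNA libraries with total counts of 2107715 to 2648920 per sample, so that 3 counts, taken as the floor, were worth 1.11 to 1.44 CPM (counts per 1000000 reads, scaled by TMM factors). Floors and intervals cover the error of the reads and libraries at hand, since amplified reads without molecular identifiers are not independent molecules. The non-coding *Gm42418* took 17.4% to 21.0% of all counts. All 10 T cell markers, *Cd4* included, were found in every sample. Reads of other cells were few, with summed B cell markers of 62.9 to 148 CPM and summed macrophage and dendritic cell markers of 57.4 to 96.5 CPM, against 2573 to 2933 CPM for the T cell list. The labels call the samples biological duplicates, without naming the animals, so p-values measure the spread between these samples.

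None of the 9 tested members passed an adjusted p of 0.05 in any of the 3 comparisons (edgeR's quasi-likelihood test, Benjamini-Hochberg adjustment over 11877 genes). For anti-PD1 against isotype that was 0 of 9, where 0.901% of all genes tested passed (0.631% higher and 0.269% lower). It was 0 of 9 for anti-Lag3 against isotype, with 0.0421% of all genes (0.0253% higher and 0.0168% lower), and 0 of 9 for anti-PD1 against anti-Lag3, with 0.312% of all genes (0.253% higher and 0.0589% lower). At an unadjusted p under 0.05 there were 3 members (*Ctla4*, *Btla* and *Cd200*) in the first comparison, where 8.13% of all genes did so, 1 (*Ctla4*) in the second, against 5.98%, and 0 in the third, against 6.54%. DESeq2 and limma-voom also called 0 members in each comparison. The plot of each member's level in each sample shows these values.

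**Figure D1:**
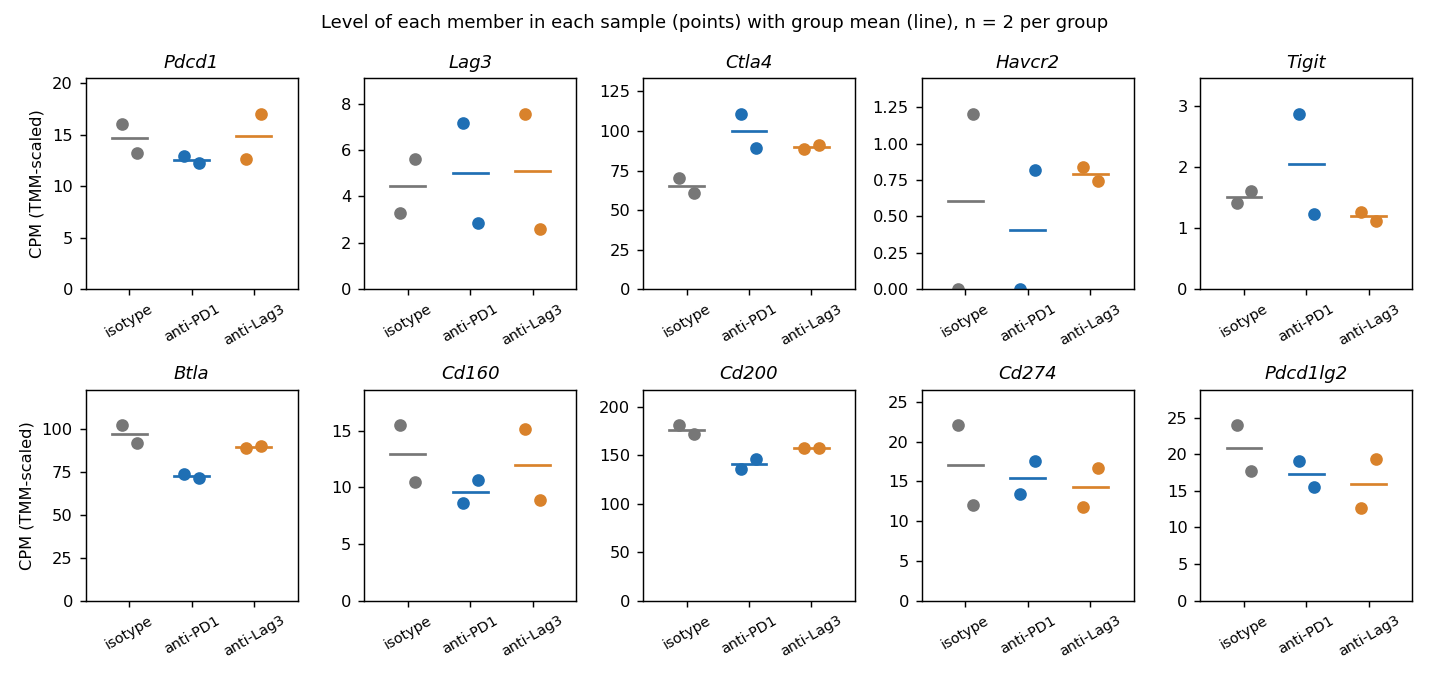
Level of the 10 genes in each of the 6 samples, in TMM-scaled CPM on a linear axis starting at 0. Points are samples, lines are group means (n = 2), and each panel has its own scale. *Ctla4* lies at 88.4 to 111 CPM in the 4 antibody samples and at 60.7 and 70.1 CPM in the isotype samples, while *Lag3* spreads as widely within groups as between them.

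The targets of the antibodies come first. *Pdcd1* had 34 and 33 reads in the isotype group, 27 and 30 after anti-PD1, and 30 and 46 after anti-Lag3. In CPM these were 16.0 and 13.3, then 12.9 and 12.3, then 12.6 and 17.1. The anti-PD1 samples lay just under the isotype samples, and the anti-Lag3 samples lay on both sides of them. Group means were 14.6 ± 1.93, 12.6 ± 0.467 and 14.8 ± 3.13 CPM (SD, n = 2). The difference of anti-PD1 from isotype was -0.21 on the log2 scale (95% interval -0.96 to 0.53, edgeR adjusted p = 0.966), so that a fold of 0.514 to 1.45 lay within the interval. After anti-Lag3 it was 0.03 (-0.69 to 0.75, edgeR adjusted p = 0.995), a fold of 0.618 to 1.69. No change of *Pdcd1* mRNA was detectable with either antibody at this depth. In bulk samples such as these, fewer cells of a type and less RNA per cell cannot be told apart.

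*Lag3* was covered by few reads in every group. It had 7 and 14 reads in the isotype group, 15 and 7 after anti-PD1, and 18 and 7 after anti-Lag3, which is 3.30 and 5.63, 7.18 and 2.86, and 7.58 and 2.60 CPM. The lowest and the highest value both belonged to the anti-Lag3 group, and all 3 groups overlapped. The difference of anti-PD1 from isotype was 0.13 on the log2 scale (95% interval -1.25 to 1.51, edgeR adjusted p = 0.987) and that of anti-Lag3 was 0.15 (-1.21 to 1.51, edgeR adjusted p = 0.988). A fold of 0.421 to 2.85 with anti-PD1 lay within that interval, so large changes of *Lag3* mRNA in either direction could not have been seen. Its sign turned when limma-voom was used and when single samples were left out, with values from -0.65 to 0.66 for anti-PD1 and from -0.79 to 0.75 for anti-Lag3.

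*Ctla4*, the receptor that competes with CD28, had the lowest p-value of the members. It had 149 and 151 reads in the isotype group, 232 and 219 after anti-PD1, and 210 and 246 after anti-Lag3. In CPM the isotype samples were at 70.1 and 60.7, the anti-PD1 samples at 111 and 89.5, and the anti-Lag3 samples at 88.4 and 91.2. All 4 antibody samples were above both isotype samples, and the antibody groups overlapped each other. Group means were 65.4 ± 6.65, 100.2 ± 15.2 and 89.8 ± 1.98 CPM (SD, n = 2).

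For anti-PD1 against isotype the *Ctla4* difference was 0.61 on the log2 scale (SE 0.17, 95% interval 0.27 to 0.96), a fold of 1.53, with an unadjusted p of 8.6e-04 and an edgeR adjusted p of 0.0738, rank 139 of the 11877 genes. It was thus just short of the threshold. The adjusted p was 0.0379 with anti-Lag3 replicate 1 left out of the fit and 0.0454 with anti-Lag3 replicate 2 left out, and these were the only settings in which a member passed. It ranged from 0.0504 to 0.378 over the other models, scalings and filters. It reached 0.734, with a log2 difference of 0.45, without anti-PD1 replicate 1, and 0.538 without isotype replicate 2. For anti-Lag3 against isotype the *Ctla4* difference was 0.46 (SE 0.17, 95% interval 0.12 to 0.80, edgeR adjusted p = 0.688), and between the antibodies it was 0.15 (-0.18 to 0.49, edgeR adjusted p = 0.959). Both comparisons with isotype use the same isotype samples, and so do not support each other.

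Because *Ctla4* was higher in all 4 antibody samples than in both isotype samples, the mean of the antibody groups was set against isotype, a comparison chosen after its values were seen. *Ctla4* had a log2 difference of 0.54 (SE 0.15, 95% interval 0.23 to 0.84, edgeR adjusted p = 0.112) and did not pass, and 0 of the other 8 tested members passed, where 0.514% of all genes tested passed. Unadjusted, *Ctla4* (9.3e-04) and *Cd200* (0.0385) were under 0.05, as were 7.52% of all genes. With 1 sample left out the adjusted p of *Ctla4* ran from 0.0917 to 0.653, and it was 0.316 in DESeq2. In the same comparison 4 of the 11 costimulatory receptors passed, with *Icos* at 0.47, *Tnfrsf4* at 0.58, *Tnfrsf18* at 0.81 and *Slamf6* at -0.60. Taken singly, *Slamf6* was at -1.03 with anti-PD1 and at -0.16 with anti-Lag3 (edgeR adjusted p = 0.945), where its groups overlapped. These 4 calls were not tried under other settings of this comparison.

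*Btla*, whose protein binds the TNF receptor family member HVEM (*Tnfrsf14*), was on the other side of the isotype control. It had 217 and 228 reads in the isotype group, 154 and 174 after anti-PD1, and 210 and 242 after anti-Lag3, corresponding to 102.2 and 91.7, 73.7 and 71.1, and 88.4 and 89.8 CPM. The anti-PD1 samples were the lowest of the 6, and the anti-Lag3 samples were just under those of the isotype group. The log2 difference from isotype was -0.42 for anti-PD1 (95% interval -0.75 to -0.09, edgeR adjusted p = 0.400) and -0.12 for anti-Lag3 (-0.44 to 0.20, edgeR adjusted p = 0.965). Between the antibodies it was -0.30 (-0.63 to 0.03, edgeR adjusted p = 0.797). *Btla* kept its sign under each alternative tried, and its adjusted p was at least 0.333 for anti-PD1 against isotype.

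The remaining receptors had fewer reads. *Cd160*, which like BTLA binds HVEM, had 33 and 26 reads in the isotype group, 18 and 26 after anti-PD1, and 36 and 24 after anti-Lag3, and the groups overlapped. Its log2 difference from isotype was -0.42 (95% interval -1.26 to 0.42, edgeR adjusted p = 0.891) with anti-PD1 and -0.11 (-0.92 to 0.70) with anti-Lag3. *Tigit*, a receptor for PVR and nectins, had 3 to 6 reads per sample, and its interval for anti-PD1 against isotype ran from -2.05 to 2.86. *Havcr2* had 0 and 3 reads in the isotype group, 0 and 2 after anti-PD1, and 2 and 2 after anti-Lag3. Each of these *Havcr2* values was at or under the floor of 3 counts, so no fold is given. At this depth the data hold next to no information on *Tigit* and *Havcr2* in any group.

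Among the ligands, *Cd200* was the member with the most reads, 2250 over the 6 samples. It had 385 and 426 reads in the isotype group, 283 and 358 after anti-PD1, and 374 and 424 after anti-Lag3. In CPM the isotype samples were at 181 and 171, the anti-PD1 samples at 135 and 146, and the anti-Lag3 samples at 158 and 157. The 3 groups did not overlap, with isotype highest and anti-PD1 lowest. The log2 difference of anti-PD1 from isotype was -0.32 (95% interval -0.59 to -0.05, edgeR adjusted p = 0.457), that of anti-Lag3 was -0.16 (-0.43 to 0.10, edgeR adjusted p = 0.932), and that between the antibodies was -0.16 (-0.43 to 0.11, edgeR adjusted p = 0.922). The interval of *Cd200* for anti-Lag3 against isotype is not adjusted for the number of genes. It rests on 2 samples per group and a spread shared across genes, so changes beyond its ends are not excluded.

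The ligands of PD-1 were measured in the bulk RNA of the sorted cells. *Cd274* had 47 and 30 reads in the isotype group, 28 and 43 after anti-PD1, and 28 and 45 after anti-Lag3, and the groups overlapped. Its log2 difference from isotype was -0.12 with anti-PD1 (95% interval -0.86 to 0.61, edgeR adjusted p = 0.981) and -0.24 with anti-Lag3 (-0.97 to 0.49, edgeR adjusted p = 0.967). *Pdcd1lg2* had 51 and 44 reads, then 40 and 38, then 30 and 52. Its log2 differences were -0.26 (-0.94 to 0.41, edgeR adjusted p = 0.940) and -0.37 (-1.04 to 0.30, edgeR adjusted p = 0.945). Each of these intervals includes 0, and no change of either neighbouring gene was detectable with either antibody. PD-L1 and PD-L2 are also made by antigen-presenting cells, and which cells these reads came from was not tested.

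**Figure D2:**
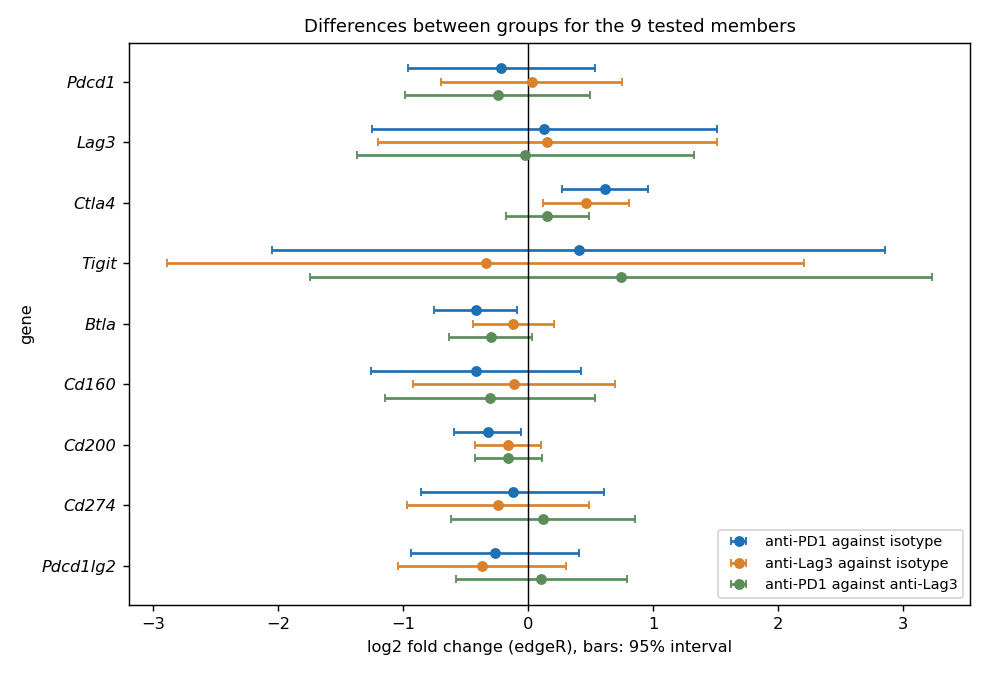
Log2 fold change of the 9 tested members in the 3 comparisons (edgeR), with 95% intervals as bars and 0 as the vertical line. The *Ctla4* intervals against isotype (0.27 to 0.96 and 0.12 to 0.80) and the *Btla* and *Cd200* intervals for anti-PD1 lie to one side of 0, but no member passed the adjusted threshold, and *Tigit* and *Lag3* have the widest bars.

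Counted over the members, the samples of the compared groups did not overlap for 4 of 9 with anti-PD1 against isotype (1 higher, *Ctla4*, and 3 lower, *Pdcd1*, *Btla* and *Cd200*), where 37.4% of all genes tested did not overlap (19.2% higher, 18.2% lower). With anti-Lag3 against isotype 4 of 9 did not overlap (1 higher, *Ctla4*, and 3 lower, *Tigit*, *Btla* and *Cd200*), where 34.6% of all genes did not (17.2% higher, 17.4% lower). For anti-PD1 against anti-Lag3 it was 2 of 9, both lower (*Btla* and *Cd200*), against 35.9% of all genes (18.2% higher, 17.6% lower). *Tigit* had 3 reads in each anti-Lag3 sample, the floor, against 3 and 4 in the isotype group, so its place in this count follows from library size and gives no direction. These shares are near those of all genes, so they say nothing particular about the members. The median log2 difference of the 9 members was -0.21, -0.12 and -0.02 in the 3 comparisons, with 0.00 over all genes tested. A single gene tested by exact permutation of 2 against 2 samples cannot go below p = 0.333, so the p-values rest on the spread that edgeR shares across genes.

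How firmly each member can be read depends on its reads. The half-width of the 95% interval for anti-PD1 against isotype was 0.27 on the log2 scale for *Cd200*, 0.33 for *Btla* and 0.34 for *Ctla4*. It was 0.67 for *Pdcd1lg2*, 0.73 for *Cd274*, 0.75 for *Pdcd1* and 0.84 for *Cd160*, 1.38 for *Lag3* and 2.46 for *Tigit*. Receptors with the widest intervals include *Lag3*, a target of the antibodies.

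**Figure D3:**
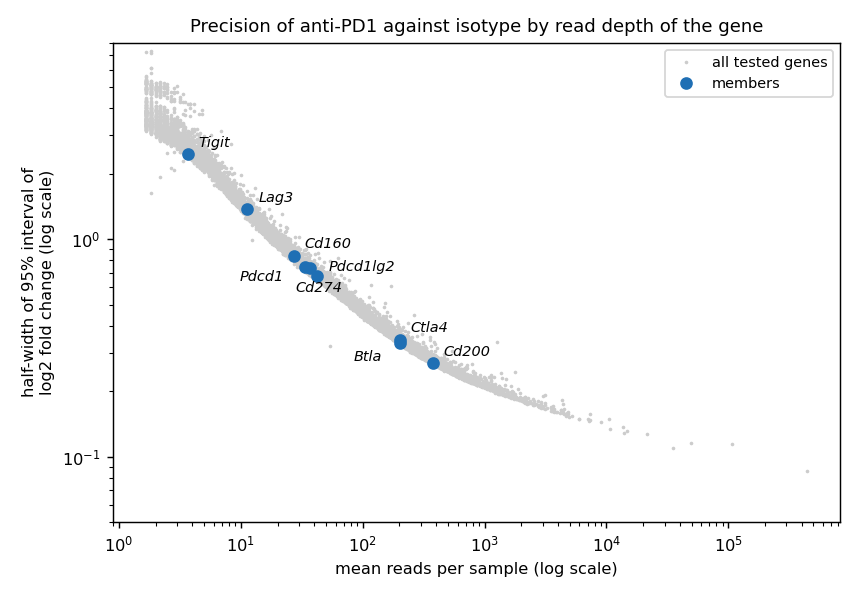
Half-width of the 95% interval of the log2 fold change, anti-PD1 against isotype, against the mean reads per sample, both on log axes. Grey points are all 11877 tested genes and blue points the 9 members, which follow the same curve from *Tigit* (2.46) down to *Cd200* (0.27).

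The genes whose level across the 6 samples was most like that of each antibody target were looked up among the 5292 genes with a mean of at least 50 reads per sample. For *Pdcd1* these were *Scd2* (Pearson r = 0.993), *Kctd20* (0.982) and *Rpl36* (0.954), and for *Lag3* they were *Psmd6* (0.989), *Gpd2* (0.984) and *Tmx2* (0.981). They are the highest of 5292 values over 6 libraries, which share their depth, and are given as a description.

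Other genes of the same biology were read from lists, which were chosen with earlier results of these data known. Genes that bind the members were measured at 11 of 17, and 0 of these passed in any comparison (0.901%, 0.0421% and 0.312% of all genes passed). Of those with most reads, *Hmgb1* and *Lgals9*, ligands named for Tim-3, had log2 differences of -0.27 (edgeR adjusted p = 0.492) and -0.49 (0.250) for anti-PD1 against isotype, and *Pvr*, the ligand of TIGIT, had 0.17 (0.966). Of the MHC class II genes, whose products Lag3 binds, *H2-Eb1* was at -0.18 (0.979). The other members of the list of that class, named after their values were seen, were at lower levels in both anti-PD1 samples than in both isotype samples without passing. *H2-Aa* had 17 and 48 reads in the isotype group and 9 and 8 after anti-PD1, a log2 difference of -1.86 (95% interval -2.95 to -0.78, edgeR adjusted p = 0.0921). *H2-Ab1* had 30 and 26 reads and then 10 and 10, a log2 difference of -1.46 (-2.57 to -0.35, edgeR adjusted p = 0.348). The median of the 11 was -0.49 on the log2 scale with anti-PD1 and -0.40 with anti-Lag3. The MHC class II genes among them are made by B cells and dendritic cells. The summed B cell list and the joint macrophage and dendritic cell list were lower after anti-PD1 too. In the joint list *Itgax*, *Flt3* and *Xcr1* had 2, 4 and 0 reads in the isotype group and 0, 0 and 1 after anti-PD1. These are too few to follow dendritic cells by themselves. The part of B cells and dendritic cells in the MHC class II reads was not tested.

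Of other inhibitory receptors, 10 of 16 were tested, and 1 passed with anti-PD1 and 0 with anti-Lag3. Over all genes tested the shares were 0.901% and 0.0421%. *Cd5*, a receptor that dampens T cell receptor signalling, rose with anti-PD1, from 42.4 and 41.4 CPM in the isotype samples to 71.3 and 96.8 CPM, and was at 65.7 and 63.8 CPM after anti-Lag3. The log2 difference with anti-PD1 was 1.01 (SE 0.19, edgeR adjusted p = 0.0015), which was lost without isotype replicate 2 or anti-PD1 replicate 2, the highest adjusted p being 0.301. The paper had already reported *Cd5* as raised by anti-PD1 in these samples, so its passing here is no independent support. *Pecam1*, *Vsir* (VISTA) and *Cd96* had log2 differences of -0.60, -0.28 and 0.52 with anti-PD1 and did not pass.

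In the signalling genes below the receptors, 10 of 10 were tested and 2 passed with anti-PD1, in opposite directions, where 0.901% of all genes passed. An unadjusted p under 0.05 (edgeR) was found for 5 of the 10, where 8.13% of all genes had one. *Ptpn6*, which encodes the phosphatase SHP-1, fell from 228 and 220 CPM in the isotype samples to 123 and 106 CPM, a log2 difference of -0.97 (SE 0.14, edgeR adjusted p = 1.3e-05), and was at 159 and 191 CPM after anti-Lag3. *Cblb*, an E3 ubiquitin ligase that restrains T cell activation, rose from 141 and 99.0 CPM to 214 and 245 CPM (0.94, SE 0.15, edgeR adjusted p = 5.4e-05). Both held in each of 16 alternative settings. Both also differed directly between the antibodies, *Ptpn6* by -0.62 (edgeR adjusted p = 0.0247) and *Cblb* by 0.61 (edgeR adjusted p = 0.0412). Those direct calls held in 12 and 10 of 16 settings. Both were lost with legacy=FALSE in edgeR, that of *Cblb* also in DESeq2 and with filterByExpr, and both without either anti-PD1 sample or without anti-Lag3 replicate 2, with adjusted p up to 0.844 and 0.901. *Ptpn11* (SHP-2), the phosphatase best known below PD-1, was at -0.46 with anti-PD1 (95% interval -0.75 to -0.16, edgeR adjusted p = 0.159), and *Csk* was at -0.32 (0.492).

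Transcription factors tied to inhibitory receptor genes were all tested, 17 of 17, and 2 passed with anti-PD1, where 0.901% of all genes did. At an unadjusted p under 0.05 (edgeR) there were 8 of the 17, against 8.13% of all genes. *Irf4* rose by 0.51 on the log2 scale (SE 0.11, edgeR adjusted p = 0.0080), from 270 and 247 CPM to 383 and 354 CPM, and *Nfatc1* fell by 0.60 (SE 0.13, edgeR adjusted p = 0.0081), from 209 and 244 CPM to 160 and 139 CPM. Each call was lost without isotype replicate 2 or either anti-PD1 sample, with adjusted p up to 0.283 for *Irf4* and 0.432 for *Nfatc1*. *Irf4* too was already reported in the paper as raised by anti-PD1 in these samples, so its passing is no independent support. *Maf* (0.48, edgeR adjusted p = 0.0513) did not pass. *Nr4a3*, named because its reporter defined the sort, had 109 and 112 reads in the isotype group, 62 and 72 after anti-PD1 and 97 and 99 after anti-Lag3, with a log2 difference of -0.70 for anti-PD1 (edgeR adjusted p = 0.194). By flow cytometry the paper reports more responding cells with anti-PD1, also in this experiment, so the share of cells in the sort gate differed. It also reports a higher blue Timer signal in responding cells with anti-PD1, which is reporter protein and not mRNA. With anti-Lag3, 0 of 17 transcription factors passed, where 0.0421% of all genes did.

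The costimulatory receptors, which promote T cell activation, are given for comparison. The paper had already reported *Icos*, *Tnfrsf4*, *Tnfrsf9* and *Tnfrsf18* as raised by anti-PD1 in these samples, so their passing here is no independent support. With anti-PD1, 6 of 11 tested passed (4 higher, 2 lower), where 0.901% of all genes did. With anti-Lag3 0 of 11 passed, where 0.0421% of all genes did. An unadjusted p under 0.05 with anti-Lag3 was found for 5 of the 11, where 5.98% of all genes had one. Of these, *Tnfrsf18* (log2 difference 0.68, edgeR adjusted p = 0.0512), *Icos* (0.36), *Tnfrsf4* (0.36) and *Cd2* (0.27) were higher, and *Cd226* (-0.64) was lower. With anti-PD1, *Icos*, the neighbour of *Ctla4*, rose from 739 and 695 CPM to 980 and 1169 CPM (0.58 on the log2 scale, SE 0.09, edgeR adjusted p = 8.6e-05). *Tnfrsf4* (OX40) rose by 0.81, *Tnfrsf9* (4-1BB) by 1.05 and *Tnfrsf18* (GITR) by 0.94. *Slamf6* fell by 1.03 (edgeR adjusted p = 5.3e-05) and *Cd226*, which shares the ligand PVR with TIGIT, by 1.24 (edgeR adjusted p = 0.0361). *Cd2* (0.35) and *Cd28* (0.11), the receptor whose ligands CTLA-4 takes, did not pass with anti-PD1. *Tnfrsf4* held in 16 of 16 settings. Without anti-PD1 replicate 2 the calls for *Icos* (adjusted p = 0.134), *Tnfrsf9* (0.141), *Tnfrsf18* (0.0608) and *Slamf6* (0.0552) were lost, and that for *Cd226* was lost in 6 of 16 settings. *Tnfrsf9* (0.89, edgeR adjusted p = 0.0113) and *Slamf6* (-0.88, 0.0026) also differed between the antibodies, with both calls lost without anti-PD1 replicate 2 or anti-Lag3 replicate 2, and that for *Tnfrsf9* also without anti-PD1 replicate 1 and in DESeq2. The difference between the lists was not tested.

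**Figure D4:**
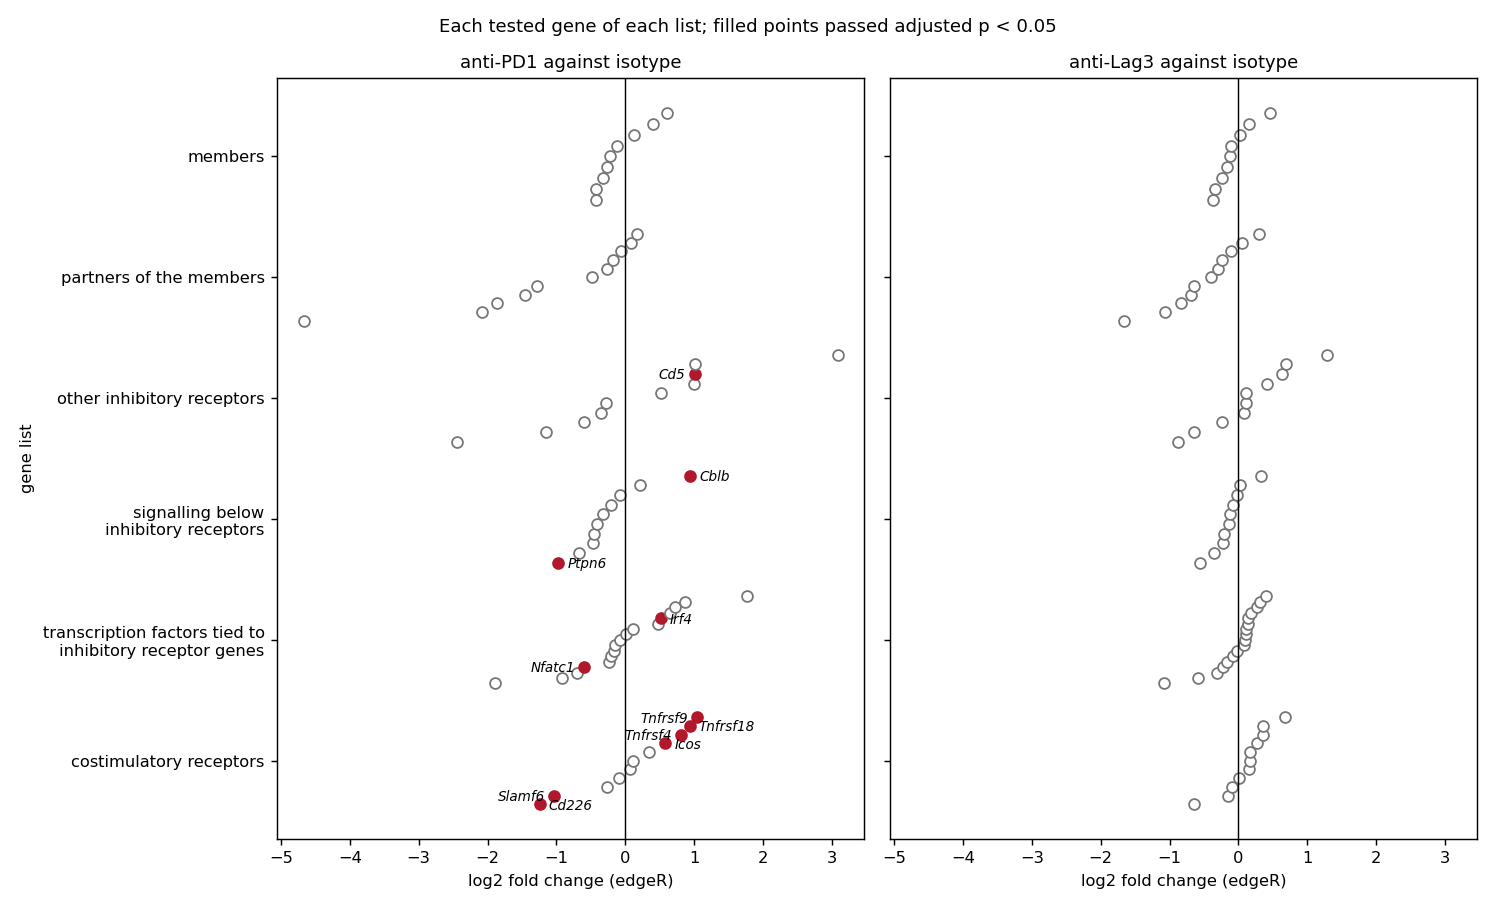
Log2 fold change (edgeR) of each tested gene in the members and in 5 related lists, against isotype for anti-PD1 (left) and anti-Lag3 (right). Filled, named points passed an adjusted p of 0.05. With anti-PD1 that is 0 of 9 members and 6 of 11 costimulatory receptors, and with anti-Lag3 0 in each list shown. Over all genes tested, 0.901% passed with anti-PD1 and 0.0421% with anti-Lag3. The lists were chosen with earlier results of these data known.

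Marker levels moved with the antibody groups and stand beside these values. The T cell markers summed to 2828 and 2933 CPM in the isotype samples, 2573 and 2684 after anti-PD1, and 2927 and 2742 after anti-Lag3, so that the anti-PD1 samples were the lowest. Of the 10 T cell markers 0 passed for anti-PD1 against isotype. Without overlap 6 were lower, where 18.2% of all genes were, and 4 had an unadjusted p under 0.05, where 8.13% of all genes did. Those 4 had log2 differences of -0.38 for *Cd3e*, -0.34 for *Cd3d*, -0.32 for *Cd4* and -0.21 for *Trbc2*. On the other side of 0 were 3 markers, *Cd247* (0.09), *Trac* (0.07) and *Thy1* (0.05). The differences of *Btla* (-0.42) and *Cd200* (-0.32) were of similar size to those of *Cd3e*, *Cd3d* and *Cd4*. The paper places *Cd3e*, *Cd3g* and *Lck* in a group of genes lowered for a time soon after a high dose of peptide. The T cell sum therefore does not measure the share of T cells alone. The part of T cell receptor signalling in the T cell marker values was not tested. The summed B cell markers were at 135 and 148 CPM in the isotype samples, 70.3 and 62.9 after anti-PD1, and 89.7 and 134 after anti-Lag3, with *Cd79a* at 0 in every sample. Of the 9 tested, 2 passed as lower with anti-PD1, where 0.269% of all genes did. These were *Ighm* (log2 difference -0.89, edgeR adjusted p = 0.0082) and *Igkc* (-2.51, 0.0013). The macrophage and dendritic cell markers summed to 90.4 and 96.5, 57.4 and 70.3, and 73.7 and 79.4 CPM. Of the 10 tested, 1 passed as lower with anti-PD1 (*C1qa*, -2.59, edgeR adjusted p = 0.0265), again against 0.269% of all genes. Against isotype, the calls of *Ighm*, *Igkc* and *C1qa* were lost without anti-PD1 replicate 2, and those of *Ighm* and *C1qa* also without anti-PD1 replicate 1, without isotype replicate 2 and in DESeq2. That of *C1qa* was further lost without isotype replicate 1 and in limma-voom. Between the antibodies *Ighm* was lower with anti-PD1 (-0.88, edgeR adjusted p = 0.0224) in 10 of 16 settings. That call was lost in DESeq2, with legacy=FALSE, with filterByExpr, without either anti-PD1 sample and without anti-Lag3 replicate 2, with an adjusted p up to 0.844. The CD8 T cell markers were at 54.6 and 48.3, 34.4 and 29.8, and 33.7 and 32.6 CPM, and 0 of 2 passed. *Btla* and *Cd200*, which B cells and other cells also make, had their lowest levels in the same anti-PD1 samples, and *Ctla4* was higher in the 4 samples in which the CD8 T cell markers were lower. The part of the makeup of the samples in the members' values was not tested.

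**Figure D5:**
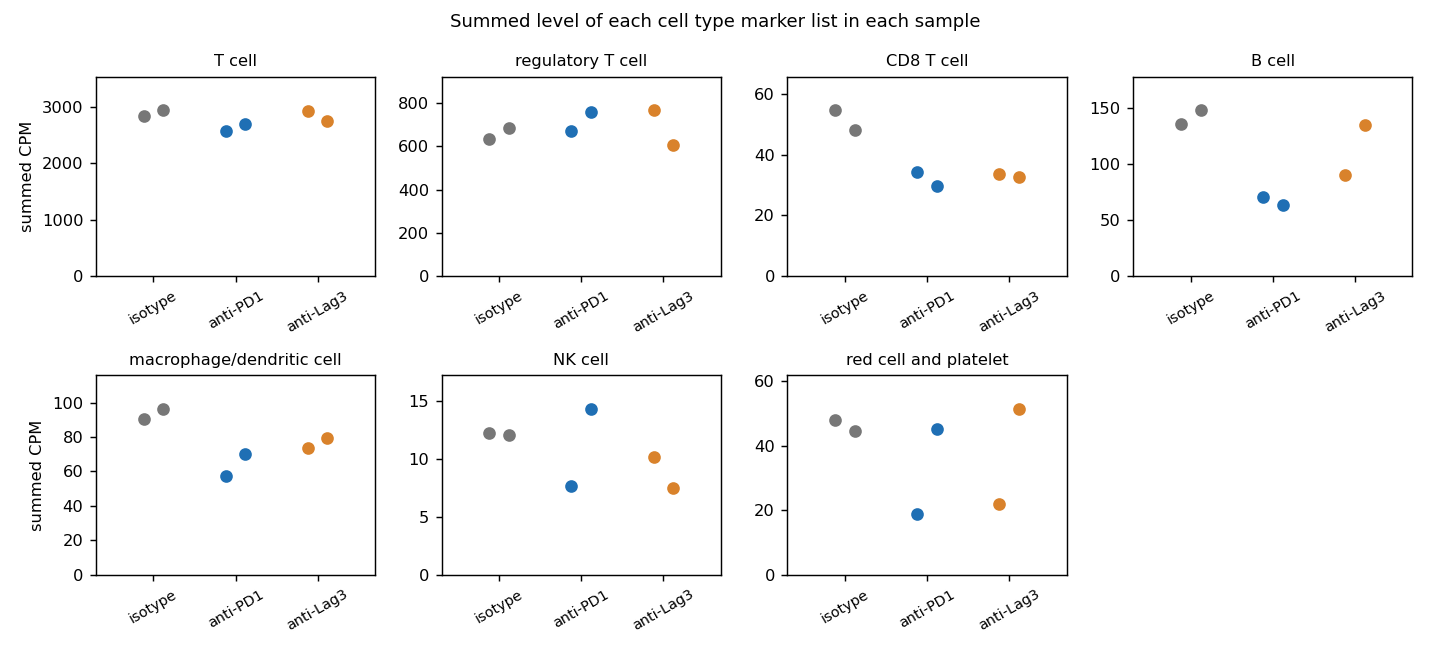
Summed TMM-scaled CPM of each cell type marker list in each sample (points), on linear axes starting at 0, with 2 samples a group. The B cell sum is 62.9 and 70.3 CPM after anti-PD1 against 135 and 148 CPM in the isotype group, and the T cell sum is 2573 and 2684 CPM after anti-PD1 against 2828 and 2933 CPM in the isotype group.

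The regulatory T cell markers, which matter because regulatory T cells carry much CTLA-4, summed to 633 and 684 CPM in the isotype samples, 668 and 758 CPM after anti-PD1, and 766 and 607 CPM after anti-Lag3, and 0 of 4 passed in any comparison. Their lead gene *Foxp3* had 5 and 40 reads, 7 and 15, and 12 and 33. The *Foxp3* groups overlapped, and its lowest and highest read counts were those of the 2 isotype samples, in which *Ctla4* was at 70.1 and 60.7 CPM. Most of the marker sum came from *Il2ra* and *Ikzf2*, with isotype group means of 443 and 192 CPM. The mean of *Foxp3* in that group was 9.22 CPM. The paper places *Il2ra* in a group of genes activated after peptide, so the sum does not measure regulatory T cells alone. The part of regulatory T cells in the *Ctla4* values was not tested.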

How the data were processed

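RNA of sorted T cells from 6 mouse samples (3 groups of 2) was made by the authors into QuantSeq 3′ mRNA libraries and sequenced, aligned to mm10 with STAR 2.5.2a and counted with HTSeq. The count table deposited by the authors holds raw read counts per Ensembl gene, and their second deposited table holds log2 values after the regularised log of DESeq2, which were only checked against the counts here (its 11877 genes are those with at least 10 reads in all). The annotation and strand setting of the counting are not given in the sources used here. Symbols were found for 47224 of 47643 identifiers, and positions come from GENCODE on GRCm38.

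Genes with at least 10 reads over the 6 samples were tested with edgeR 4.0.16 in R 4.3.3 (TMM scaling, quasi-likelihood F-test, 1 mean per group, all 6 samples sharing the spread), adjusted by Benjamini-Hochberg over 11877 genes with a threshold of 0.05. Intervals at 95% were taken from the log2 fold change and its SE. Alternatives were DESeq2 1.42.0, limma-voom (limma 3.58.1), other scalings and filters, a replicate block and leaving out each sample. Scripts were tested on simulated data. Named were all members, list genes past the threshold and up to 4 genes per list with the most reads. A gene this rule selects is not reported here. The members and lists were chosen with earlier results of these data known. Sequences are RefSeq promoters of GRCm38.p6. Neither cell numbers nor protein levels were used here.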

Additional observations from a re-analysis of the deposited data

How the results depend on the processing

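No alternative made a member pass except that leaving out either anti-Lag3 sample made the count 1 (*Ctla4*) for anti-PD1 against isotype. Leaving out 1 sample gave 0 to 1 members there and 46 to 163 genes in all (107 with every sample), 0 to 16 (5) for anti-Lag3 against isotype and 3 to 54 (37) between the antibodies. For anti-Lag3 against isotype, DESeq2 gave 1 gene, edgeR with legacy=FALSE 0, filterByExpr 0, a minimum of 1 read 20, a fit of only the 4 samples 0, and leaving *Gm42418* and mitochondrial rRNA out of library sizes 3. Between the antibodies DESeq2 gave 16 and a minimum of 1 read 58.

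Of 429 alternative values of the members, 404 kept direction and side, 2 passed and 23 turned sign, each for a gene with 255 reads or fewer except *Ctla4* between the antibodies. With limma-voom *Lag3* was -0.011 and -0.041 against isotype (anti-PD1, anti-Lag3) and 0.030 between the antibodies. With 1 sample left out the log2 differences ranged as follows. For anti-PD1 against isotype, *Lag3* was -0.65 to 0.66, *Cd274* -0.51 to 0.37 and *Tigit* -0.29 to 0.90. For anti-Lag3 against isotype, *Lag3* was -0.79 to 0.75, *Cd274* -0.63 to 0.25, *Pdcd1* -0.20 to 0.22 and *Cd160* -0.54 to 0.24. Between the antibodies, *Lag3* was -0.81 to 0.92, *Cd274* -0.10 to 0.39, *Cd160* -0.66 to 0.12, *Ctla4* -0.0086 to 0.31 and *Pdcd1lg2* -0.16 to 0.44. The cause was not tested.

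The labels do not say that a replicate number marks a batch, but the left-out replicate was sorted and processed as one, so a shared batch cannot be told from a shared number. Correlations of replicate differences between groups were low (0.05, 0.05 and -0.06). In each group replicate 1 had the lower total count, the higher share of *Gm42418* and fewer *Foxp3* reads. The replicate block gave 0, 0 and 0 members and 144, 6 and 46 genes in all, with an adjusted p of 0.0529 for *Ctla4* with anti-PD1 against isotype. Where a sample was left out, its lone partner was assumed to vary like the other groups. The alternatives for list genes were chosen after seeing the data. DESeq2 gave no adjusted p for some members with few reads. *Havcr2* could be fitted only with a minimum of 1 read, and its fold is not given because its counts were at or under the floor.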
